A study of Homo sapiens with 5 samples.

Results

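The genes described here are 33 androgen-responsive and luminal prostate genes, chosen by symbol from a deposited table of 25702 genes. Kallikreins were left out of the set. All 33 were in the table, with prostatic acid phosphatase listed under its current symbol ACP3, and 32 passed a filter of a mean of at least 1 CPM (CPM is the count scaled to a common library total) over the 5 libraries. STEAP4 did not pass, with 1 count in 1 input and 1 in 1 PSF-RIP library. The other 32 averaged at least 1.02 CPM over the inputs alone, so none was kept only through its level in PSF-RIP.

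Androgen switches on a secretory program in luminal prostate cells, in which the transcription factors FOXA1 and HOXB13 take part. That program includes proteases, transporters, metabolic enzymes and lipid-handling proteins, and the luminal cells themselves are marked by keratins 8 and 18. PSF is the product of SFPQ. It binds RNA in the nucleus, gathers in paraspeckles, which form around the long noncoding RNA NEAT1, and has been tied to RNA splicing in prostate cancer that no longer depends on androgen.

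RNA recovered with an antibody to PSF (PSF-RIP) and unselected input RNA were sequenced from LTAD, a human prostate cancer cell line kept in androgen-depleted medium (charcoal-stripped serum, no phenol red). Cells received the vehicle DMSO or 5 µM of No.10-3, a small molecule known here by its code name. There were 2 input libraries (1 from vehicle and 1 from No.10-3 cells), 1 vehicle PSF-RIP library and 2 No.10-3 PSF-RIP libraries, with no control immunoprecipitation among them. All libraries come from 1 cell line under androgen depletion, so no library shows the androgen-stimulated state, and the labels do not say whether the No.10-3 pair came from separate cultures, so p-values measure only the spread between these libraries, which may be technical. The 2 input columns do not show which one had the compound. They serve as 1 reference and are called input A and input B here. Because 1 came from vehicle and 1 from No.10-3 cells, their spread also holds any effect of the compound on input RNA.

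Libraries held 1519362 to 4010376 counts. The inputs and the immunoprecipitates differed widely in make-up: 5 short noncoding RNAs (RN7SK, RPPH1, RN7SL1, RN7SL2 and RMRP) took 51.7% and 55.0% of the input counts and 2.63% to 7.81% of the PSF-RIP counts. Counts were therefore put on a common scale with edgeR's TMM factors, which centre on the bulk of genes, and "scaled CPM" below refers to that scale. Without those factors the median gene lay at a log2 PSF-RIP over input of 2.38 in place of 0.05, so each level is relative to the other RNAs of a library. The No.10-3 library of replicate 2 stood nearest to the inputs, with 3224 genes at least 2-fold from input A, against 5392 for replicate 1 and 5599 for vehicle. NEAT1 itself stood at 1591 and 1329 scaled CPM in the inputs and at 512 to 951 in PSF-RIP, a log2 ratio of -1.24 (SE 0.42, edgeR adjusted p = 0.0283), which turned to 1.13 on plain library totals. MALAT1, looked at beside NEAT1, stood at 8511 and 6114 scaled CPM in the inputs and at 3717 to 10970 in PSF-RIP. Its groups overlapped, at a log2 ratio of -0.32 (SE 0.49, edgeR adjusted p = 0.667).

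The cells carried luminal markers. KRT8, KRT18, KLK3 and HOXB13 all had counts in every library, and these 4 summed to 74.3 to 90.8 CPM of the library total in the inputs and 533 to 838 in PSF-RIP. All marker sums here are on plain library totals, where the median gene lay at a log2 PSF-RIP over input of 2.38. On scaled CPM the log2 ratios were 0.64 for KRT8, 1.15 for KRT18, 0.67 for KLK3 and 0.40 for HOXB13. Of 5 basal markers, KRT5 and TP63 were at 0 in all libraries, and the list summed to at most 5.27 CPM. NGFR had 0 and 1 counts in inputs A and B and 6 to 10 in PSF-RIP (log2 2.24, SE 1.3, edgeR adjusted p = 0.202). KRT14 had 1 and 4 counts in the No.10-3 libraries, and KRT15 had 1 in vehicle PSF-RIP and 1 in No.10-3 replicate 1. Of 6 neuroendocrine markers, CHGA, CHGB and INSM1 were at 0 in all libraries, as were 2 of 5 stromal markers, DES and LUM. SYP had 4 to 23 counts per library and NCAM1 had 1 to 3. Among stromal markers, ACTA2 had 0 counts in the inputs and 2 to 6 in PSF-RIP, and COL1A2 had 1 count in No.10-3 replicate 1. Of 4 immune and endothelial markers, PTPRC was at 0 in all libraries, PECAM1 had 1 count in 1 input, and CD68 and VWF had counts in every library, for a list sum of 0.973 to 1.99 CPM in the inputs and 14.2 to 19.8 in PSF-RIP. ENO2 carried most of the neuroendocrine sum of 14.3 to 14.7 CPM in the inputs and 94.8 to 153 in PSF-RIP. On scaled CPM the log2 ratio of ENO2 was 0.88 (SE 0.37, edgeR adjusted p = 0.0751), and that of SYP was -0.50. Those of CD68 and VWF were 0.64 (SE 0.80) and 1.47 (SE 0.77). COL1A1, which carried most of the stromal sum (1.95 to 3.74 CPM in the inputs and 52.0 to 76.1 in PSF-RIP), was higher in PSF-RIP than in input (log2 2.06, SE 0.47, edgeR adjusted p = 0.00161). The part of these markers in the results below was not tested.

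Levels between genes are compared per length, as FPKM, the count divided by the deposited gene length in kilobases and by the library total, scaled as CPM is. In input, STEAP2, a metalloreductase of the prostate epithelium, ranked first at 38.1 FPKM in input A and 26.8 in input B. ACSL3, which activates fatty acids, followed at 29.4 and 33.9, then SLC45A3, the prostate-specific transporter-like protein prostein, at 26.6 and 26.8. TPD52, a vesicle-trafficking protein, stood at 24.9 and 28.2 FPKM, and SPON2, a secreted matrix protein, at 21.0 and 25.5. The range of STEAP2 overlaps those of ACSL3, SLC45A3 and TPD52, and the range of TPD52 overlaps that of SLC45A3. The order of each of these pairs changed between the inputs (STEAP2 and SLC45A3 stood at 26.78 and 26.85 in input B). The ranges of TPD52 and SPON2 overlap too, but TPD52 was the higher in both inputs. The range of ACSL3 does not overlap those of SLC45A3 and TPD52, nor does that of SLC45A3 overlap that of SPON2. Among tested members at the other end, ACP3 was at 0.196 and 0.340 FPKM, PTGER4 at 0.365 and 1.14, AZGP1 at 1.18 and 0.513 and TRPM8 at 1.20 and 0.577. These 4 rest on 2 to 27 input counts each. On the log2 scale with a prior count of 2, which draws low counts together, the 2 inputs lay at least 2-fold apart at 3 of the 32 tested members, TMEFF2, PTGER4 and UBE2J1, against 16.2% of all 13321 genes tested. AZGP1 and TRPM8, over 2-fold apart in FPKM, had log2 gaps of 0.91 and 0.92 on that scale.

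PSF-RIP over input asks which of these mRNAs were relatively more or less abundant among the RNA recovered with the PSF antibody. With no control immunoprecipitation, the ratio cannot tell binding to PSF from background recovery. On this scale NEAT1 and MALAT1 had negative log2 ratios (-1.24 and -0.32), so neither showed enrichment here. The transcription factor mRNA SPDEF and the SPON2, MLPH and KRT18 mRNAs were higher in PSF-RIP, by 2.22 to 2.81-fold. UBE2J1, EAF2, STEAP2 and TPD52 were lower, with input 2.58 to 3.61-fold above PSF-RIP. As a set the members stood where the other genes did: 8 of 32 (25.0%) were called at an adjusted p under 0.05 by edgeR's quasi-likelihood test, against 25.6% of all genes tested, with 4 higher (12.0% of all genes) and 4 lower (13.6% of all genes). Their median log2 ratio was 0.005, with quartiles of -0.65 and 0.64, against 0.047 for all genes tested, with quartiles of -0.77 and 0.82.

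**Figure D1:**
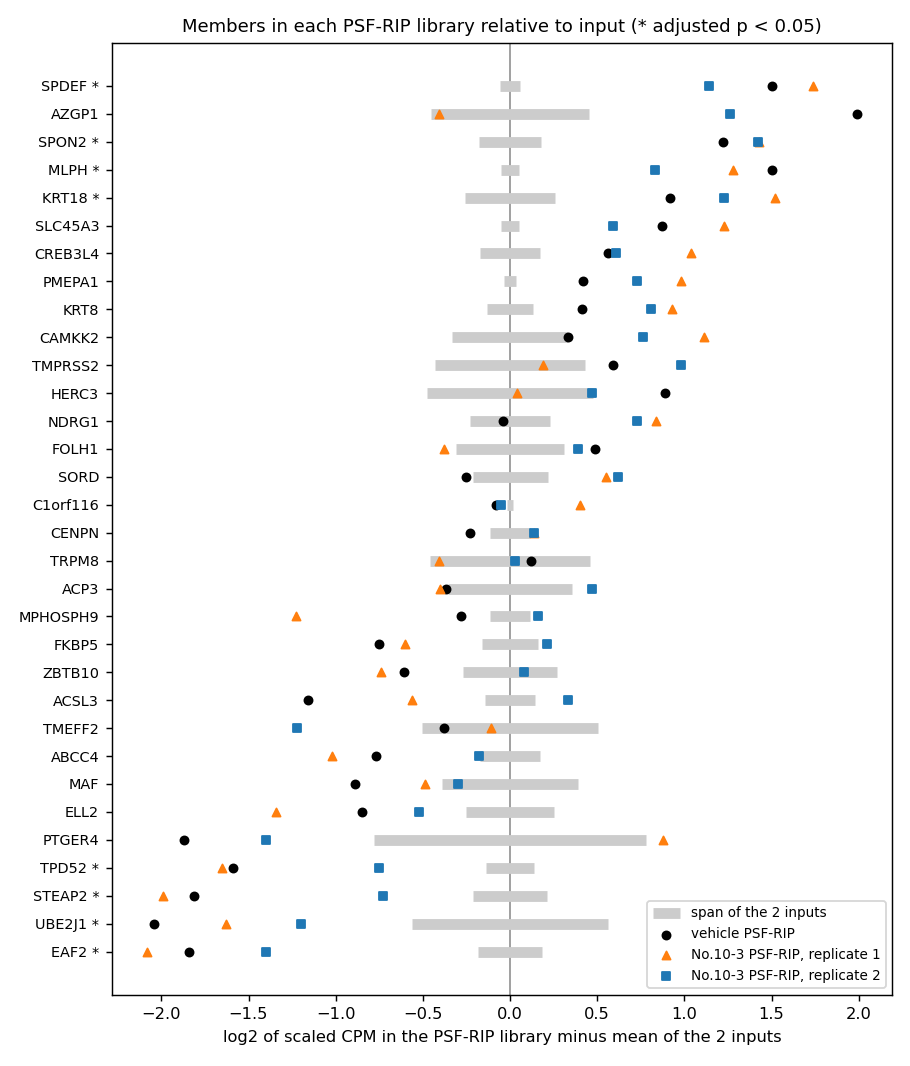
Log2 of scaled CPM in each PSF-RIP library minus the mean of the 2 inputs (x axis) for the 32 tested members (y axis). Points are single libraries, grey bars the gap between the 2 inputs, centred on their mean, and stars mark an adjusted p under 0.05 in the fit of all 5 libraries. All 3 points lie beyond both inputs on one side for 8 members above and 6 below.

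Of the members higher in PSF-RIP, SPDEF, which encodes an ETS transcription factor of luminal and secretory epithelium, had scaled CPM of 70.8 and 76.5 in inputs A and B, 209 in vehicle PSF-RIP and 248 and 163 in No.10-3 PSF-RIP replicates 1 and 2. Each PSF-RIP library was at least 2-fold above both inputs, and the log2 ratio was 1.49 (SE 0.39, adjusted p = 0.00556). For SPON2, the inputs held 106 and 137 scaled CPM, vehicle PSF-RIP 282, and the No.10-3 libraries 325 and 323. These 3 PSF-RIP libraries were again at least 2-fold above both inputs, at a log2 ratio of 1.32 (SE 0.39, adjusted p = 0.0132). SPDEF and SPON2 were the only members to reach that mark, which 5.59% of all genes reached.

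MLPH, the melanophilin linker of vesicles to myosin motors, stood at 153 and 142 scaled CPM in the inputs, 418 in vehicle PSF-RIP and 360 and 262 with No.10-3. All PSF-RIP values lay above the inputs, with replicate 2 the lowest of them, and the log2 ratio was 1.29 (SE 0.40, adjusted p = 0.0159). KRT18, a filament keratin of simple epithelia, stood at 27.0 and 39.1 in the inputs, 62.2 in vehicle PSF-RIP and 94.7 and 77.0 with No.10-3, a log2 ratio of 1.15 (SE 0.38, adjusted p = 0.0238). Its partner KRT8 stood at 69.5 and 83.6 in the inputs, 101 in vehicle PSF-RIP and 146 and 135 with No.10-3. The KRT8 groups did not overlap either, but the log2 ratio of 0.64 (SE 0.37, adjusted p = 0.201) missed the threshold. Processed pseudogenes of both keratins are numerous, so reads that fit more than 1 copy leave these counts uncertain.

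Among the members lower in PSF-RIP, UBE2J1, a ubiquitin-conjugating enzyme of the endoplasmic reticulum, stood at 27.0 and 59.6 scaled CPM in the inputs, 9.29 in vehicle PSF-RIP and 12.6 and 17.2 with No.10-3. The inputs lay at least 2-fold apart, yet both lay above every PSF-RIP library, and the log2 ratio was -1.85 (SE 0.42, adjusted p = 0.00144). EAF2, a partner of the ELL elongation factors, stood at 29.0 and 22.2 in the inputs, 6.67 in vehicle PSF-RIP and 5.55 and 9.24 with No.10-3, a log2 ratio of -1.85 (SE 0.44, adjusted p = 0.00235). EAF2 was the only member whose PSF-RIP libraries all lay at least 2-fold below both inputs, as 5.45% of all genes did. It rests on 15 to 64 counts per library.

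STEAP2, the most abundant member in input, stood at 702 and 524 scaled CPM in the inputs, 173 in vehicle PSF-RIP and 152 and 367 with No.10-3, a log2 ratio of -1.53 (SE 0.41, adjusted p = 0.00667). TPD52 stood at 288 and 348 in the inputs, 105 in vehicle PSF-RIP and 101 and 188 with No.10-3, a log2 ratio of -1.37 (SE 0.39, adjusted p = 0.00915). In both genes No.10-3 replicate 2 lay between the inputs and the other PSF-RIP libraries.

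How many members are called depends on single libraries. Without input A, 0 members were called higher and 1 lower (UBE2J1), against 2.33% and 6.55% of all genes. Without input B, 0 were higher and 1 lower (EAF2), against 0.518% and 4.28%. Without vehicle PSF-RIP the counts were 3 and 2, against 4.79% and 6.52%. Without No.10-3 replicate 1 they were 6 and 6, against 16.7% and 17.5%, and without No.10-3 replicate 2 they were 8 and 10, against 20.3% and 21.3%, so the calls over all genes moved with the same libraries. The fit without vehicle had 2 residual degrees of freedom and the others had 1. The 8 called members kept their sign in each of these fits. On plain library totals all 32 members lay above input, with 28 called higher and 0 lower, against 84.3% and 0.405% of all genes, and UBE2J1 stood at a log2 ratio of 0.52 (edgeR adjusted p = 0.280). Relative to the median gene the 8 called members kept their direction there. That centring nearly restores the TMM scale, so it is no separate support, and "lower" above means lower relative to the bulk of genes.

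**Figure D2:**
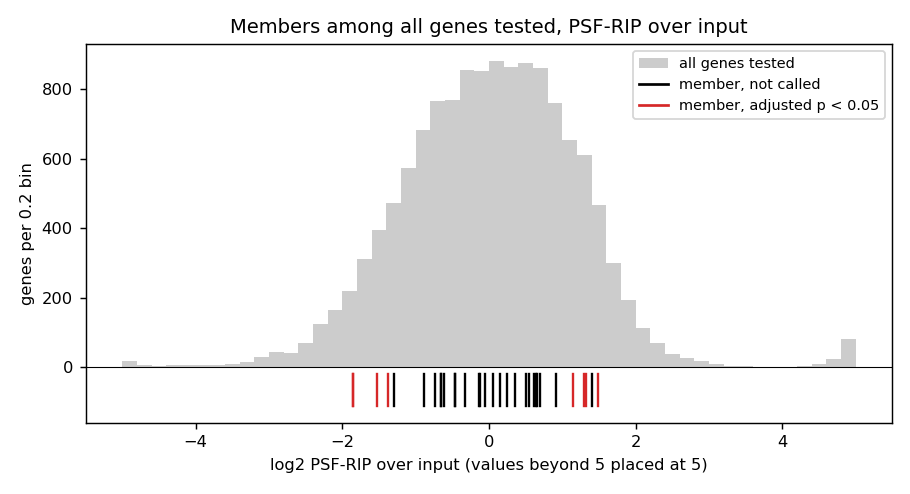
Histogram of the log2 ratio of PSF-RIP over input (x axis) for all 13321 genes tested (y axis, genes per bin), with a tick below the axis for each of the 32 members, red where the adjusted p was under 0.05. The member ticks run from -1.85 to 1.49 and spread over the body of the histogram.

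By role, 5 of 11 tested surface, secreted and transport genes had a log2 ratio above 0 and 6 below, with SPON2 called higher and STEAP2 lower. AZGP1, a secreted zinc-binding glycoprotein, stood at 3.86 and 1.78 scaled CPM in the inputs, 12.4 in vehicle PSF-RIP and 1.85 and 7.22 with No.10-3. No.10-3 replicate 1 thus fell within the inputs, and the log2 ratio of 1.40 (SE 0.66, adjusted p = 0.113) missed the threshold. SLC45A3 stood at 232 and 249 in the inputs, 439 in vehicle PSF-RIP and 566 and 363 with No.10-3, with no overlap and a log2 ratio of 0.91 (SE 0.40, adjusted p = 0.0919). TMPRSS2, the surface serine protease whose androgen-driven promoter is often fused to ERG in prostate tumours, stood at 32.8 and 17.8 in the inputs, 36.7 in vehicle PSF-RIP and 27.7 and 48.4 with No.10-3, so its groups overlapped. FOLH1, which encodes the prostate-specific membrane antigen, overlapped as well, with 37.3 and 24.0 in the inputs and 22.9 to 42.2 in PSF-RIP. ABCC4, an organic anion exporter, stood below both inputs in all PSF-RIP libraries (97.3 to 174.6 against 175.1 and 222), at a log2 ratio of -0.66 (SE 0.38, adjusted p = 0.193).

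Of the 10 genes for enzymes, signalling and trafficking, 6 lay above 0 and 4 below, with MLPH called higher and UBE2J1 and TPD52 lower. FKBP5, a co-chaperone of HSP90 and a classical androgen-induced gene, stood at 293 and 366 scaled CPM in the inputs, 194 in vehicle PSF-RIP and 216 and 378 with No.10-3. Its vehicle and replicate 1 values lay below the inputs and replicate 2 above them, at a log2 ratio of -0.46 (SE 0.39, adjusted p = 0.406). PMEPA1, an inhibitor of TGF-beta signalling, lay above both inputs in all PSF-RIP libraries, at 102 and 107 against 140 to 206, with a log2 ratio of 0.65 (SE 0.37, adjusted p = 0.203). CAMKK2, a calcium-dependent kinase upstream of AMPK, had a log2 ratio of 0.62 (SE 0.38), and HERC3, a ubiquitin ligase, one of 0.50 (SE 0.38), neither past the threshold. A group mostly of transcription and nuclear genes had 3 of 9 members above 0 and 6 below, with SPDEF called higher and EAF2 lower. It also took in C1orf116 (log2 0.06) and MPHOSPH9 (log2 -0.33). CREB3L4, a membrane-bound transcription factor of prostate, stood at 46.4 and 36.4 in the inputs and 60.8 to 85.1 in PSF-RIP with no overlap, at a log2 ratio of 0.69 (SE 0.37, adjusted p = 0.169). ELL2, an elongation factor that EAF2 binds, stood at 106 and 74.7 in the inputs and 34.8 to 61.8 in PSF-RIP, also without overlap, at -0.89 (SE 0.37, adjusted p = 0.0676). In all, 8 of 32 members had every PSF-RIP library above both inputs, against 30.1% of all genes, and 6 had every one below, against 25.1%.

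Gene length, which the choice of members did not use, went with the ratio among the members. Spearman's rho between deposited gene length and log2 PSF-RIP over input was -0.44 over the 32 members, against 0.12 over all 13321 genes and 0.07 over 11819 protein-coding ones. The points share the same 5 libraries, and the value is a description. Of the 8 members under 2000 bases, 6 lay above 0, among them SPDEF (1894 bases), SPON2 (1962 bases), KRT18 (1535 bases) and AZGP1 (1265 bases), while 1 of the 7 members of 6000 bases or more did, CAMKK2. EAF2, the shortest member at 1020 bases, and TMEFF2 (1813 bases, log2 -0.65) went against this.

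**Figure D3:**
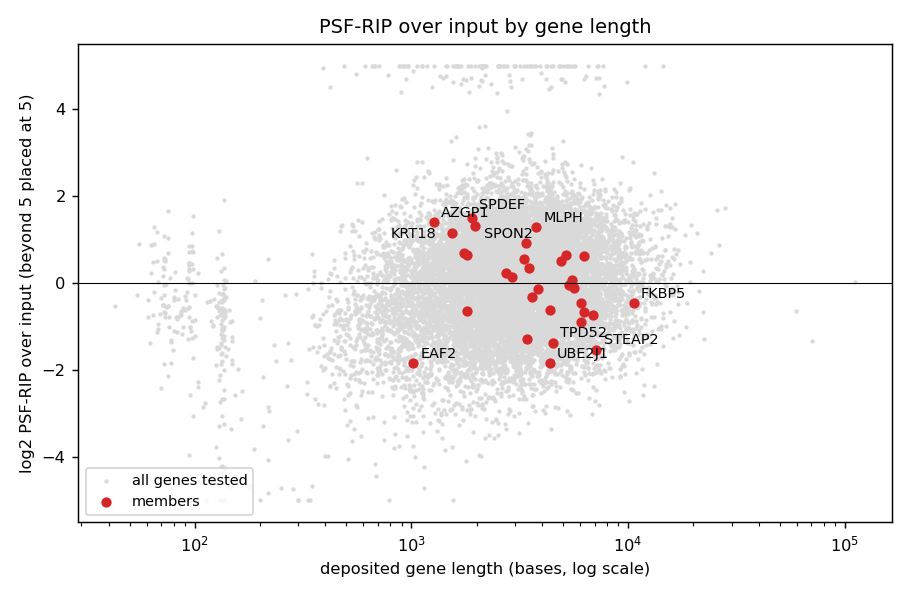
Log2 PSF-RIP over input (y axis) against deposited gene length in bases (x axis, log scale), with all 13321 tested genes in grey and the 32 members in red. Members slope from upper left to lower right, apart from EAF2 at 1020 bases and TMEFF2 at 1813, while the grey cloud shows little slope.

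Other genes of the pathway were taken from 3 lists, to be read against the 12.0% of all genes called higher and the 13.6% called lower. Of 15 further androgen-induced genes, 0 were called higher and 3 lower in PSF-RIP: TIPARP, a mono-ADP-ribosyltransferase (log2 -1.62, SE 0.37, edgeR adjusted p = 0.00151), HPGD, which inactivates prostaglandins (log2 -2.03, SE 0.68, adjusted p = 0.0251), and INSIG1, which restrains cholesterol synthesis (log2 -1.10, SE 0.37, adjusted p = 0.0257). HPGD rests on 3 to 24 counts per library. Of 15 genes for transcription factors, coregulators and chaperones of androgen signalling, 1 was called higher and 0 lower. It was the pioneer factor GATA2, at 118 and 76.5 scaled CPM in the inputs, 278 in vehicle PSF-RIP and 160 and 132 with No.10-3 (log2 1.05, SE 0.39, adjusted p = 0.0411). Of 4 androgen-repressed genes, OPRK1 was at 0 in all libraries and 1 of the other 3, UGT2B15, which glucuronidates androgens, was called lower (log2 -1.71, SE 0.46, adjusted p = 0.00676).

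No.10-3 PSF-RIP against vehicle PSF-RIP asks whether the compound changed the relative recovery of these mRNAs with PSF. No member passed the test: 0 of 32 were called, against 0% of 13321 genes (edgeR, 846 genes at an unadjusted p under 0.05, of which 3 were members, and 0 genes called by DESeq2). Member values lay mostly on the upper side, with a median log2 difference of 0.23 in replicate 1 and 0.40 in replicate 2, against 0.00 and 0.03 over all genes. In 15 of 32 members (46.9%) both No.10-3 libraries lay above vehicle, against 33.3% of all genes, and in 5 (15.6%) both lay below, against 32.4%. On the log2 scale with a prior count of 2, in 0 of 32 were both at least 2-fold from vehicle on the same side, against 3.35% of all genes. The 2 differences share the single vehicle library, and RIP libraries alone cannot tell a change in recovery from a change in the amount of the mRNA in the cells, nor, in bulk lysates, fewer expressing cells from less mRNA per cell.

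**Figure D4:**
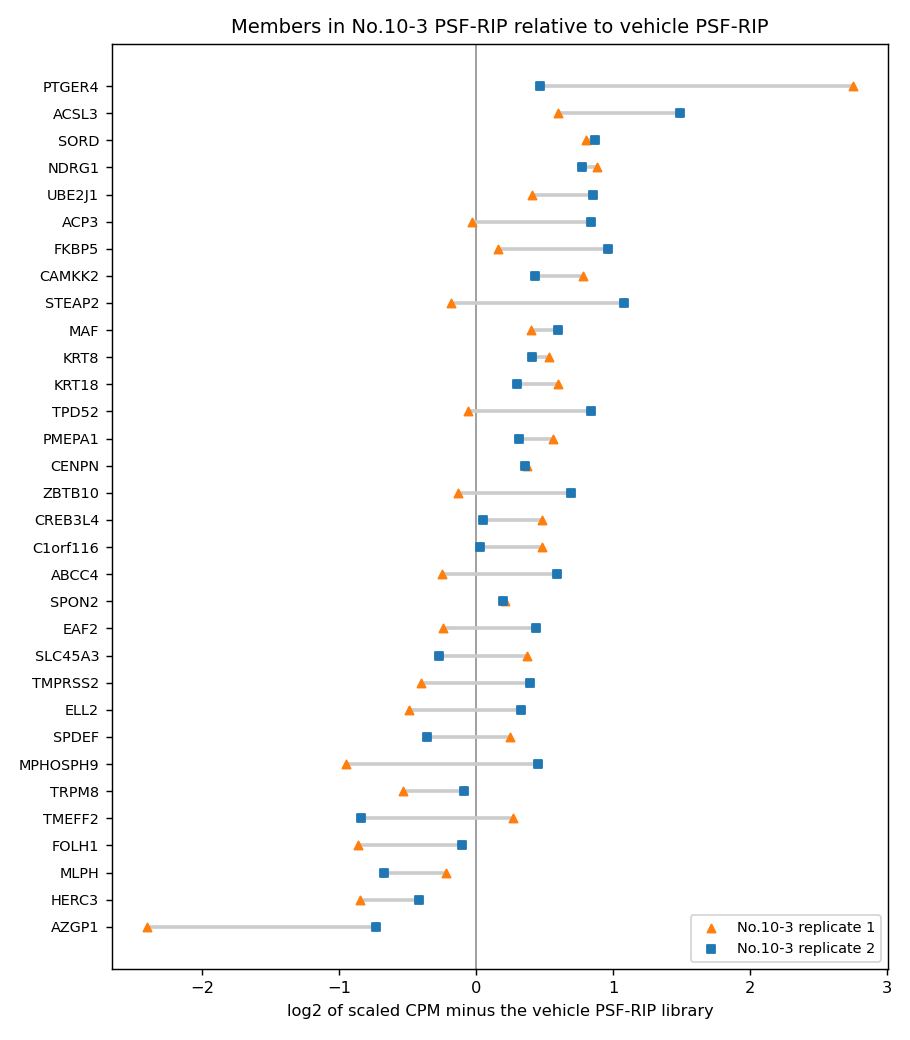
Log2 of scaled CPM in each No.10-3 PSF-RIP library minus the vehicle PSF-RIP library (x axis) for the 32 tested members (y axis), with a line joining the 2 replicates. Most members lie to the right of 0, and 12 have replicates on opposite sides.

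The members furthest from vehicle in both No.10-3 libraries are given as values. SORD, which turns sorbitol into fructose, stood at 112 scaled CPM with vehicle and at 196 and 204 in replicates 1 and 2, a log2 difference of 0.84 (SE 0.50, adjusted p = 0.828). NDRG1, a stress- and androgen-induced growth regulator, stood at 170 with vehicle and at 314 and 291, a difference of 0.83 (SE 0.51, adjusted p = 0.843). In both genes the No.10-3 pair lay close together and apart from the single vehicle value. SORD has a near-identical pseudogene copy, so its counts are uncertain.

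ACSL3 stood at 164 with vehicle and at 248 and 460 with No.10-3, a log2 difference of 1.11 (SE 0.55, adjusted p = 0.785). Both replicates lay above vehicle, but they differed from each other by more than replicate 1 differed from vehicle. Its inputs, at 331 and 405 scaled CPM, lay above vehicle and replicate 1. CAMKK2 stood at 45.3 with vehicle and at 78.0 and 61.1 with No.10-3, a difference of 0.61 (SE 0.47, adjusted p = 0.881). PTGER4, a prostaglandin E2 receptor, rested on 5 counts with vehicle and on 31 and 13 with No.10-3, or 1.19, 11.5 and 1.88 scaled CPM, a difference of 2.30 (SE 0.95, adjusted p = 0.783). AZGP1 went the other way, at 52 counts with vehicle and 5 and 50 with No.10-3, or 12.4, 1.85 and 7.22 scaled CPM, a difference of -1.31 (SE 0.61, adjusted p = 0.783). For PTGER4 and AZGP1 the size rested mostly on replicate 1.

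Single replicates moved these values. Without No.10-3 replicate 1, edgeR called 2 members, STEAP2 (log2 1.07, adjusted p = 0.0219) and ACSL3 (log2 1.47, adjusted p = 8.58e-04), among 872 genes (6.55%), and without replicate 2 it called PTGER4 alone of the members (log2 3.21, adjusted p = 0.0269), among 26 genes (0.195%). Such fits compare 1 library with 1, and assume that both vary as the inputs do, whose spread also holds any effect of the compound. The 2 No.10-3 libraries lay at least 2-fold apart on that log2 scale at 5 of 32 members, against 15.8% of all genes.

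Several members with a negative log2 PSF-RIP over input had replicate 2 above vehicle and replicate 1 near it. Over all genes too, replicate 2 stood nearest to the inputs, with 3224 genes at least 2-fold from input A. Replicate 1 had 5392 such genes and vehicle 5599, and the part of this library-wide difference was not tested. STEAP2 was at 173 scaled CPM with vehicle and at 152 and 367 with No.10-3, TPD52 at 105, 101 and 188, and ABCC4 at 115.6, 97.3 and 175. UBE2J1 was above vehicle in both, at 9.29, 12.6 and 17.2. The 4 members called higher over input were spread about vehicle: SPON2 was at 282, 325 and 323, KRT18 at 62.2, 94.7 and 77.0, SPDEF at 209, 248 and 163, and MLPH at 418, 360 and 262. Below vehicle in both No.10-3 libraries were AZGP1, MLPH, HERC3, FOLH1 and TRPM8, the last a cold- and menthol-gated ion channel, at 13.6, 9.25 and 12.7.

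Of the further androgen-induced genes, 12 of 15 had a log2 difference above 0 and 0 were called, with a median of 0.53, against 52.6% of all genes above 0, 0 called and a median of 0.04. RAB3B, a vesicle-release GTPase, stood at 57.0 with vehicle and at 130 and 180 with No.10-3 (log2 1.45, SE 0.51, edgeR adjusted p = 0.783), while the kallikrein KLK2 stood at 464 and at 189 and 248 (log2 -1.09, SE 0.50, adjusted p = 0.783). The 15 androgen signalling factors and chaperones had 11 above 0, 0 called and a median of 0.20. All 3 tested androgen-repressed genes lay above 0, with 0 called and a median of 1.06, so values above 0 were not particular to androgen-induced genes. Of these 3, UGT2B17 rests on 4 to 34 counts per library.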

How the data were processed

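RNA immunoprecipitation with a PSF antibody and input libraries were made with a stranded kit, per the labels' protocols. TopHat2 2.1.0, Bowtie2 2.2.6, Bowtie and hg19 are named, without roles, per the submitters' processing notes. The sources used here do not name the counter, its strand setting, its handling of multiply mapping reads or the annotation. The authors deposited 1 table of counts and gene length per Entrez gene, with 1 count column per library, and the whole-number counts were taken as raw. The 5 FPKM columns of the table were not used, and levels per length were computed from counts, lengths and library totals. The 2 columns named only for the compound were taken as PSF-RIP, since the other 2 candidates are named input.

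Genes averaging 1 CPM or more over all libraries were scaled by TMM and tested with edgeR 4.0.16 (R 4.3.3, glmQLFit and glmQLFTest, Benjamini-Hochberg over 13321 genes, threshold 0.05). The fit had 3 groups over all 5 libraries and 2 residual degrees of freedom. PSF-RIP over input is the mean of both PSF-RIP groups minus input, and the lone vehicle library is assumed to vary like the other groups. SE is the log2 change over the square root of F. Log2 values by library used a prior count of 2. Rows without a symbol (1962, at most 0.504% of a library's counts) were kept. Biotypes came from RefSeq by Entrez ID for 23696 genes. DESeq2 1.42.0, other scalings and filters, other designs and left-out libraries were the alternatives.

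Recovery was tried on simulated counts of 13321 genes with 200 of them changed. For PSF-RIP over input, the test recovered 64 of 100 genes changed 4-fold and 3 of 100 changed 2-fold. For No.10-3 against vehicle it recovered 32 and 2, so where few genes change, 2-fold changes could rarely be called. In the data 25.6% of genes were called for PSF-RIP over input, which eases the adjusted threshold, so the simulated rates do not carry over to that comparison. GATA2, for example, was called there at a log2 ratio of 1.05. Some genes of the comparison and marker lists are not reported here and were left out of the counts over those lists, but not out of the fit. The members and lists were chosen with earlier results of these data known. Named in full are members called in either comparison, those with every PSF-RIP library at least 2-fold from both inputs on 1 side, and the 6 with the largest change in both No.10-3 libraries on the same side. Other members named to show a role group were chosen after their values were seen.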

Additional observations from a re-analysis of the deposited data

How the results depend on the processing

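For PSF-RIP over input, the 8 called members kept their direction relative to the median gene under all alternatives run. For plain library totals this was nearly fixed by centring on the median gene, since as fitted the 4 lower members lay above 0 there. DESeq2 size factors, upper-quartile factors, no filter, the DESeq2 Wald test and the 2-group fit each called 4 members higher and 4 lower. A minimum of 5 CPM and protein-coding genes only, the latter chosen after seeing the data, called 4 and 5. Plain library totals called 28 and 0 members and 11277 genes, 99.5% of them higher against 46.8% with TMM, after a shift of the median gene of 2.34, and the Wald test called 2252 genes in place of 3413. Leaving out 1 library gave 0 to 8 members higher, 1 to 10 lower and 639 to 5549 genes. Members with a log2 ratio near 0 changed sign without being called: C1orf116 (-0.01) at a minimum of 5 CPM, ACP3 (0.02) and CENPN (0.02) in the 2-group fit, and, leaving out 1 library in turn, TRPM8 (-0.50 to 0.47), SORD (-0.05 to 0.57), ACP3 (-0.55 to 0.32), CENPN (-0.16 to 0.14), FOLH1 (-0.04 to 0.60) and C1orf116 (-0.05 to 0.19). The median over members stayed within 0.27 (the SD of the 3 library medians) of its value with TMM, on plain totals only relative to the median gene, since as fitted it was 2.36 there.

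For No.10-3 against vehicle, 0 members were called except without No.10-3 replicate 1 (2 members, 872 genes) or replicate 2 (1 member, 26 genes), so leaving out 1 library gave 0 to 2 members and 0 to 872 genes, and 9 genes, none of them members, were called with no filter. ELL2 turned to 0.01 on plain totals. Leaving out 1 library in turn changed the sign of SLC45A3 (-0.29 to 0.37), ELL2 (-0.50 to 0.32), MPHOSPH9 (-0.96 to 0.44), TMPRSS2 (-0.40 to 0.38), STEAP2 (-0.18 to 1.07), ACP3 (-0.04 to 1.0), ABCC4 (-0.25 to 0.58), ZBTB10 (-0.13 to 0.68), EAF2 (-0.26 to 0.45), TPD52 (-0.06 to 0.83), SPDEF (-0.37 to 0.25) and TMEFF2 (-1.04 to 0.31), of which STEAP2 was called at 1.07. The causes were not tested. Without the vehicle library this comparison could not be fitted. No paired analysis was possible because only 1 group carries replicate numbers in the labels. Input counts are the limit on depth, with a median of 23 and 16 over tested genes.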
